A study of Mus musculus with 5 samples.

Results

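The inhibitor of DNA binding (ID) genes and the HES and HEY genes encode helix-loop-helix proteins that hold back other transcription factors of the same class. The genes were chosen by name, as every row of the deposited tables whose gene symbol was Id1, Id2, Id3, Id4, Hes1, Hes5, Hes6, Hey1, Hey2 or Heyl. These are 10 of the 55385 genes in the tables, each found in 1 row, and all 10 were among the 19768 genes that passed the expression filter of edgeR.

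The study sequenced total RNA of whole hippocampi from male C57/bl6 mice at 3 months of age. The 5 libraries came from 4 conditions: 1 library of untreated animals, and 1, 2 and 1 libraries of animals given kainic acid, an agonist of glutamate receptors (20 mg/kg, intraperitoneal), and killed 1, 4 and 8 h after their seizures began. The control was untreated and had received no vehicle injection, so the injection and the seizures cannot be told apart here. Of the animals given kainic acid, only those that reached stage 5 seizures were used, and it is not given whether 1 mouse or several went into a library, nor whether the replicates at 4 h were separate mice.

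ID proteins lack the basic region that contacts DNA, and they pair with E proteins such as TCF3, TCF4 and TCF12 and keep these and their proneural partners from binding. Their genes are classical targets of bone morphogenetic protein (BMP) signalling through SMAD proteins. HES and HEY proteins do bind DNA and repress transcription, many of them by recruiting Groucho (TLE) corepressors, and several of their genes are switched on when a cleaved Notch receptor joins the DNA-binding protein RBPJ. In the adult hippocampus both families are best known for keeping neural stem cells undifferentiated, and members are also expressed in astrocytes, blood vessels and subsets of neurons.

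The control library held 19100374 reads on genes, the 1 h library 17744508, replicates 1 and 2 at 4 h 18250114 and 19109204, and the 8 h library 16612225. Values are given as normalized CPM, that is, counts per unit of library size in the usual CPM scale after TMM scaling in edgeR, and a floor of 3 reads corresponded to between 0.151 and 0.178 normalized CPM. Intervals are exact 95% intervals and cover counting error only. Fold changes were tested with the quasi-likelihood test of edgeR and Benjamini-Hochberg adjustment over all 19768 genes. Only 4 h was replicated, so every p-value rests on the spread of this pair, which may be technical, and the single libraries were assumed to vary like it.

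Activity-regulated genes were high at 1 h and in replicate 1 at 4 h, while in replicate 2 at 4 h Npas4 and Egr1 lay near the control. Fos, which encodes a subunit of the AP-1 transcription factor, had 10.8 normalized CPM in the control, 999 at 1 h, 519 and 70.4 in replicates 1 and 2 at 4 h, and 17.2 at 8 h. Npas4, a transcription factor gene induced by calcium entry, had 3.92, 694, 130, 4.92 and 5.13 normalized CPM in the same order. Arc, which encodes a cytoskeletal protein of synapses, had 148, 2022, 2593, 928 and 152, and Egr1, a zinc finger transcription factor gene, had 29.1, 215, 99.1, 30.9 and 19.1. Of the 8 genes of the activity list, 8 were at least 2-fold higher at 1 h, 4 in both libraries at 4 h and 2 at 8 h, and for Fos, Npas4, Arc and Egr1 replicate 1 at 4 h lay far above replicate 2.

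Replicate 1 at 4 h stood apart from the other libraries. Its summed level of the choroid plexus list (Ttr, Kl, Folr1, Foxj1, Otx2 and Aqp1) was 32.7 normalized CPM, against 3945 in the control, 1665 at 1 h, 4206 in replicate 2 at 4 h and 3056 at 8 h. The most abundant gene of this list, the thyroxine carrier gene Ttr, had 275 reads in this library and 74570 in the control. The summed level of the thalamus list was 111 in the control, 123 at 1 h, 436 in replicate 1, 181 in replicate 2 and 85.6 at 8 h. Over 19702 genes with reads in both libraries of the pair, the log2 ratio between replicates 1 and 2 had an SD of 0.72, and 2322 genes (11.8%) differed at least 2-fold. Values at 4 h are therefore given for each library, and the part of choroid plexus and thalamus RNA in any difference was not tested. In whole tissue, fewer cells of a type and less RNA per cell cannot be told apart.

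**Figure D1:**
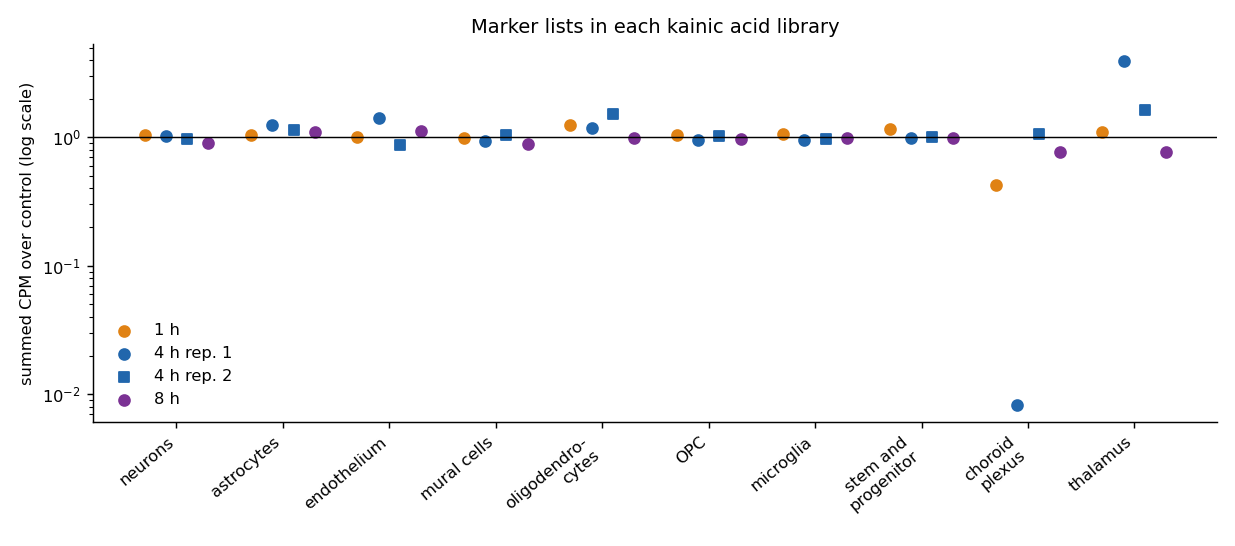
Summed normalized CPM of each marker list in the 4 kainic acid libraries, divided by the control, on a log scale (1 symbol per library, black line at the control). The choroid plexus list lies at 0.422 of the control at 1 h and at 0.00829 in replicate 1 at 4 h, and the thalamus list at 3.92 in that replicate.

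No member passed the test at any time point. The numbers of genes called over all 19768 were 0 at 1 h (0%), 1 at 4 h (0.00506%), 0 at 8 h (0%) and, between 8 h and 4 h, 0 (0%), and none of the 10 members was among them. The 1 gene was ETV3L, named after its values were seen. None of the 8 genes of the activity list was called in any comparison either, although Fos had a log2 fold change of 6.52 at 1 h. The absence of a call therefore does not show that a gene was unchanged. Before adjustment, edgeR gave a p under 0.05 for 478, 2291, 892 and 1726 genes in these comparisons, of which 1, 1, 2 and 1 were members (Hes1 at 1 h, Id2 at 4 h, Id2 and Id4 at 8 h, and Id4 between 8 h and 4 h). DESeq2 called 49, 233, 32 and 132 genes and none of the members, and it gave no adjusted p for Heyl in any comparison or for Hes5 and Hes6 at 8 h versus 4 h. The comparisons with the control share the same single control library, so their values for a gene are not independent of each other.

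Read against a 2-fold difference in every library of a time point, few members stood out. At 1 h, 1 of 10 members was at least 2-fold higher than the control (Hes1) and 1 was at least 2-fold lower (Hes5), where 5.41% and 3.8% of all genes were. At 4 h, none was higher or lower in both libraries, with 4.96% and 1.51% of all genes. At 8 h, none was higher and 1 was lower (Hes5), with 6.79% and 3.37% of all genes. Both libraries at 4 h were above the control for 4 members (Id1, Id2, Hes1 and Hey1) and below it for 4 (Hes5, Hes6, Hey2 and Heyl), against 38.1% and 38.3% of all genes. Scaled by library size alone, only Id1 and Id2 were above the control in both libraries. Hes1 was then below it in replicate 1, and Hey1 and Id3 were below it in both. The same scaling moved the median log2 ratio of all genes to -0.18 in replicate 1 and -0.072 in replicate 2. The shares of all genes above and below the control under this scaling are not given, so these members cannot be set against them. The median log2 fold change of the 10 members was -0.052, -0.062 and -0.030 at 1, 4 and 8 h, beside -0.0050, 0.0098 and 0.0091 for all genes.

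**Figure D2:**
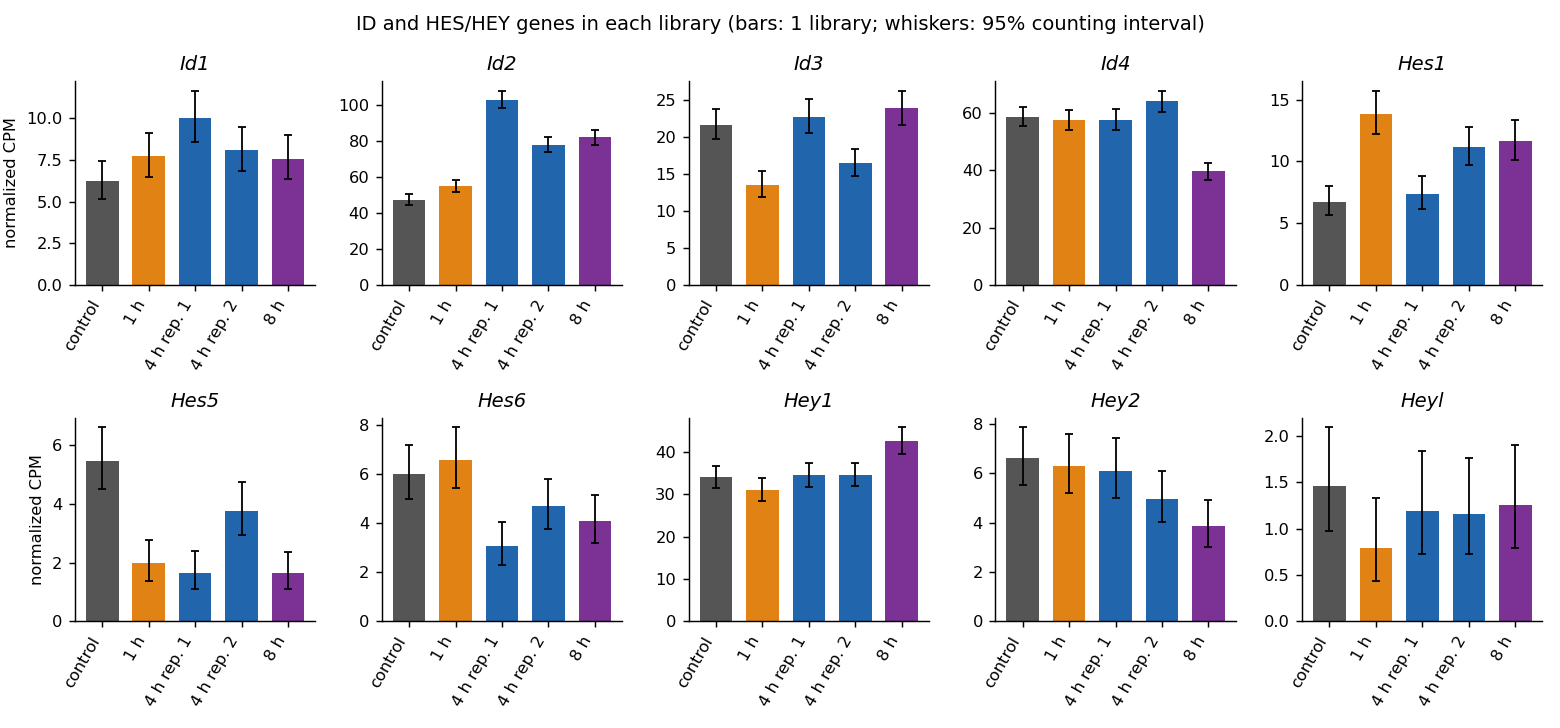
Normalized CPM of the 10 genes in each library, with 1 bar per library and whiskers for the exact Poisson 95% interval of its count. Id2 lies above the control in both libraries at 4 h and at 8 h, and Hes5 lies below the control in all 4 kainic acid libraries.

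The levels of the family spanned a wide range. Per kilobase of merged exons, Id2 was the most abundant member in the control with 19.3 normalized CPM per kb, followed by Id4 with 15.3, Id3 with 12.1, Hey1 with 10.4, Id1 with 5.37, Hes5 with 4.02, Hes6 with 3.33, Hes1 with 3.31, Hey2 with 1.44 and Heyl with 0.285. The counting intervals of Id3 and Hey1 overlapped, as did those of Id1 and Hes5, of Hes5 and Hes6, and of Hes6 and Hes1, and the differences between these neighbours in the order were not tested. Id2 also held the first place in the other 4 libraries, with 22.4 normalized CPM per kb at 1 h, 42.1 and 31.8 in the pair at 4 h and 33.5 at 8 h, and Heyl the last place in every library. Hes5 held the sixth place in the control, the eighth at 1 h and 8 h, and the ninth and the seventh in replicates 1 and 2 at 4 h.

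Id2 (ENSMUSG00000020644.9, chr12:25093799-25097140 of GRCm38, minus strand) is known from progenitors and also from neurons of the adult brain. Its level was 47.1 normalized CPM in the control, 54.7 at 1 h, 103 and 77.6 in replicates 1 and 2 at 4 h, and 81.7 at 8 h. The 3 later libraries were higher than the control beyond counting error, at 2.18 times (95% interval 2.01 to 2.36), 1.65 times (1.52 to 1.79) and 1.73 times (1.60 to 1.89), and the library at 1 h was at 1.16 times (1.06 to 1.27). In the fit the log2 fold change was 0.93 ± 0.23 (SE) at 4 h, with an adjusted p of 0.322 from edgeR with Benjamini-Hochberg adjustment, and 0.79 ± 0.26 at 8 h, with an adjusted p of 1.00. At 4 h, 91.4% of all genes tested had a lower or equal log2 fold change. Without a filter on low counts edgeR called Id2 at 4 h, with an adjusted p of 0.00226, as 1 of 1300 genes called among the 32732 then tested. Over the 5 alternatives with a test the adjusted p of Id2 ranged from 0.00226 to 0.374. Without replicate 2 Id2 was past 2-fold at 4 h, and without replicate 1 it was not.

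Id4 (ENSMUSG00000021379.2, chr13:48261228-48266026, plus strand), known in the brain for its role in neural stem cells and oligodendrocyte timing, had 58.9 normalized CPM in the control and 57.5 at 1 h. It had 57.6 and 64.2 in replicates 1 and 2 at 4 h and 39.6 at 8 h. The level at 8 h was 0.673 of the control (95% interval 0.612 to 0.740), below every other library. Replicate 2 at 4 h lay slightly above the control, at 1.09 (1.01 to 1.18), and the intervals at 1 h and in replicate 1 included 1. Its log2 fold change was -0.57 ± 0.21 at 8 h versus control (adjusted p of 1.00, edgeR with Benjamini-Hochberg adjustment) and -0.62 ± 0.19 at 8 h versus 4 h (adjusted p of 0.515). On the opposite strand, 4.44% of the exon length of Id4 lies under exons of A330033J07Rik and Gm49291, which had at most 6 and 2 reads in a library.

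Id3 (ENSMUSG00000007872.3, chr4:136143497-136145755, plus strand), with Id1 a member known in vascular cells, had 21.7 normalized CPM in the control, 13.5 at 1 h, 22.7 and 16.4 in the pair at 4 h and 23.8 at 8 h. Only the library at 1 h and replicate 2 at 4 h had intervals of their ratio to the control below 1, at 0.625 (0.531 to 0.734) and 0.759 (0.654 to 0.881). The log2 fold change at 1 h was -0.67 ± 0.34, with an adjusted p of 1 from edgeR with Benjamini-Hochberg adjustment.

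Id1 (ENSMUSG00000042745.9, chr2:152736251-152737410, plus strand), often read out as an immediate target of BMP signalling, had 124 reads in the control, 136 at 1 h, 169 and 153 in the pair at 4 h and 133 at 8 h, which is 6.23, 7.74, 10.04, 8.09 and 7.59 normalized CPM. All 4 kainic acid libraries were above the control in value, and the ratio excluded 1 in both libraries at 4 h, at 1.61 (1.27 to 2.05) and 1.30 (1.02 to 1.66). At 4 h its log2 fold change was 0.53 ± 0.33, with an adjusted p of 0.569 from edgeR with Benjamini-Hochberg adjustment. At 8 h the value of Id2 lay above the control and that of Id4 below it, and whether the members differ from each other was not tested.

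**Figure D3:**
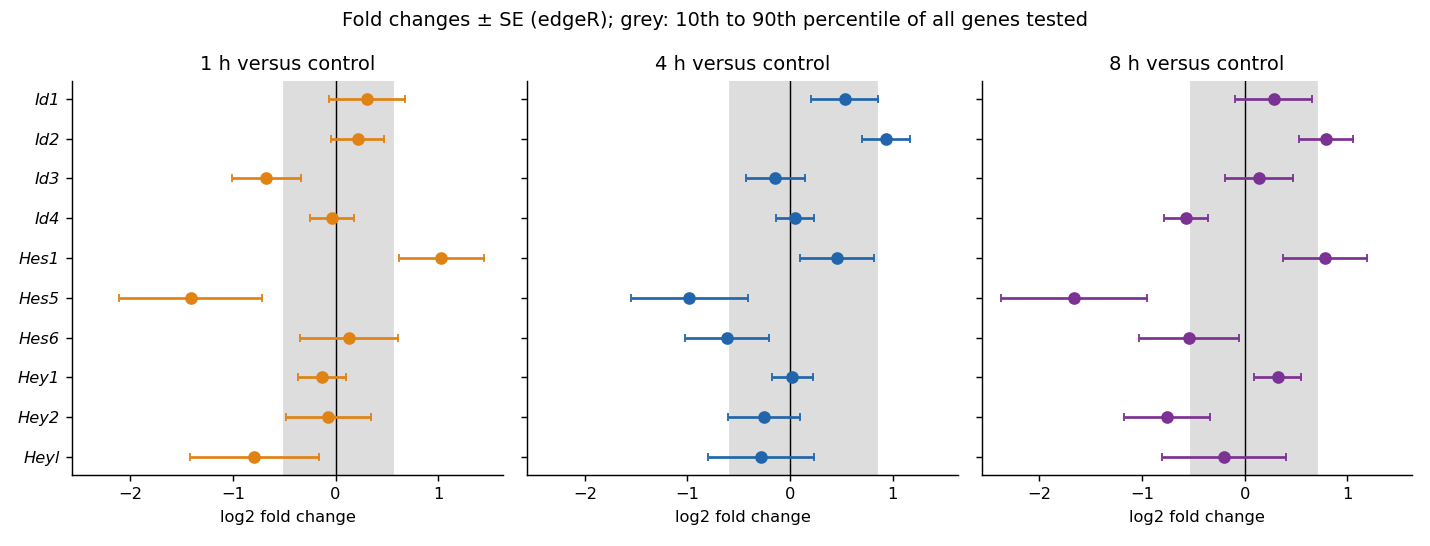
Log2 fold changes of the 10 genes against the control at 1, 4 and 8 h, with whiskers for 1 SE derived from the edgeR test statistic and grey bands for the range between the 10th and 90th percentiles of all 19768 genes. Id2 at 4 h (0.93), Hes1 at 1 h (1.03) and Hes5 at every time point are among the values outside the band, and no value passed the adjusted threshold.

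The promoters of 6 of the 10 members (Id2, Id3, Id4, Hes5, Hes6 and Hey2) were matched in the RefSeq table of GRCm38.p6, with 7 entries because Hes6 has 2 annotated starts. The RefSeq start of Id2 lies inside the GENCODE gene model, so that 161 of its 250 bases are annotated exon. The window of Id3 keeps no base upstream of the annotated exons of that gene, yet it counts as 1 of the 7. The 250 bases before each start were searched on both strands for the RBPJ core GTGGGAA, which 2 of the 7 hold (Hes5 and Hey2) and 5.42% of all 32851 promoter windows of this length, and for GGCGCC, a GC-rich element that SMAD proteins bind, which 3 hold (Hes5, Id2 and Id4) and 9.59% of all windows. The other motifs were chosen from what these factors bind: the E-box CANNTG in 5 of 7 and 66.2% of windows, the N-box CACNAG in 2 of 7 and 36.7%, and the cyclic AMP response element TGACGTCA in none of 7 and 1.55%. CCAAT was found in 5 of 7 and 33.8% of windows, in Id2 only within the 161 bases of annotated exon. TATAAA was found in 1 of 7 (Hes6) and 12.4%, and the CArG box, which serum response factor binds, in 1 of 7 (Hes5) and 1.47%. The E-box and the N-box can overlap each other, and a match is a description of letters in this window. The promoters with the RBPJ core or the GC-rich element of the members whose values were lowest at 8 h relative to the control (Hes5, Hey2 and Id4) are shown from 5′ to 3′, without bases inside annotated exons of the gene, with GTGGGAA or its reverse complement in capitals for Hes5 and Hey2 and GGCGCC in capitals for Id4. Hes5 lies at chr4:154960673-154960922 on the plus strand, Hey2 at chr10:30842802-30843033 on the minus strand and Id4 at chr13:48260866-48261115 on the plus strand.
Hes5: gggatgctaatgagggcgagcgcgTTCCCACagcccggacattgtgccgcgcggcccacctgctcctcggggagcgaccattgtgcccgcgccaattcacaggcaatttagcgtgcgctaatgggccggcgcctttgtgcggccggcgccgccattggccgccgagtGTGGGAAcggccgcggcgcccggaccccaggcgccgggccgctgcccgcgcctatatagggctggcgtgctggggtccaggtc
Hey2: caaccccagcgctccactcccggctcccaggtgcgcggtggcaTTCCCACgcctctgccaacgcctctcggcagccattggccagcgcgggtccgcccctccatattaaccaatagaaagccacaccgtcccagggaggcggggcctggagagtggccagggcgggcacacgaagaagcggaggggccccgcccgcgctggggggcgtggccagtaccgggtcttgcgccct
Id4: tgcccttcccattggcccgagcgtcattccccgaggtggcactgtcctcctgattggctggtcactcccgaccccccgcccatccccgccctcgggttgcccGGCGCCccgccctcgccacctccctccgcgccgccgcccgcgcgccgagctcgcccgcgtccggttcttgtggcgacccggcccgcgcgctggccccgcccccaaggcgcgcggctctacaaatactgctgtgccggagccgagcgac
The Hes5 window holds the RBPJ core on each strand, from 226 to 220 and from 83 to 77 bases before the start, and it also holds GGCGCC 4 times. In Hey2 the core lies from 207 to 201 bases before the start, and in Id4 GGCGCC lies from 148 to 143 bases before it.

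Hes5 (ENSMUSG00000048001.7, chr4:154960923-154962371, plus strand), a direct Notch target of neural stem cells and astrocytes, had 109 reads in the control, 35 at 1 h, 28 and 71 in replicates 1 and 2 at 4 h and 29 at 8 h. This corresponds to 5.48, 1.99, 1.66, 3.75 and 1.65 normalized CPM. All 4 kainic acid libraries were below the control, and the ratio at 1 h was 0.364 (0.241 to 0.536). At 4 h it was 0.304 (0.193 to 0.463) in replicate 1 and 0.686 (0.501 to 0.933) in replicate 2, and at 8 h it was 0.302 (0.193 to 0.458). Log2 fold changes against the control were -1.41 ± 0.70 for 1 h, -0.98 ± 0.57 for 4 h and -1.66 ± 0.71 for 8 h, with adjusted p of 1, 0.546 and 1.00 from edgeR with Benjamini-Hochberg adjustment. At 8 h only 0.491% of all genes tested had a log2 fold change as low or lower. The choroid plexus list was at 0.422, 0.00829, 1.07 and 0.775 of the control in the same 4 libraries. Replicate 2 at 4 h, with a choroid plexus level above the control, had the highest ratio of Hes5 of the 4, and at 8 h the ratio of Hes5 was lower than that of the list. The part of choroid plexus RNA in the values of Hes5 was not tested. On the opposite strand, 31.8% of the exon length of Hes5 lies under exons of Gm20421. This gene had 4, 4, 0, 1 and 1 reads. Since the strand setting of the counting is not stated, reads of the 2 genes may not have been told apart. Reads over the shared bases may then have been left out as ambiguous, which was not tested.

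Hes1 (ENSMUSG00000022528.8, chr16:30064384-30067796, plus strand), which responds to Notch and also to other signals and represses its own promoter, had 6.73 normalized CPM in the control, 13.9 at 1 h, 7.36 and 11.2 in the pair at 4 h and 11.6 at 8 h. The library at 1 h was the highest of the 5, and the pair at 4 h differed beyond counting error, with replicate 1 close to the control at 1.09 times (0.850 to 1.41) and replicate 2 at 1.66 times (1.33 to 2.07). Against the control the level at 1 h was 2.06 times (1.66 to 2.57) and that at 8 h 1.73 times (1.38 to 2.17). The log2 fold change at 1 h was 1.03 ± 0.41, with an unadjusted p of 0.0480 and an adjusted p of 1 from edgeR with Benjamini-Hochberg adjustment. Scaled by library size alone, Hes1 was no longer past 2-fold at 1 h. At 1 h the values of Hes1 and Hes5, which share the Notch pathway as an activator, lay on opposite sides of the control.

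Hes6 (ENSMUSG00000067071.8, chr1:91411483-91414038, minus strand) differs in function from its relatives, since it counteracts HES1 and favours neuronal differentiation. It had 6.03 normalized CPM in the control, 6.60 at 1 h, 3.09 and 4.71 in the pair at 4 h and 4.11 at 8 h. The ratio excluded 1 in replicate 1 at 4 h, at 0.512 (0.363 to 0.715), and at 8 h, at 0.681 (0.501 to 0.920). The log2 fold change at 4 h was -0.61 ± 0.41, with an adjusted p of 0.596 from edgeR with Benjamini-Hochberg adjustment.

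The HEY genes, known for their part in artery and heart development, were represented mainly by Hey1 (ENSMUSG00000040289.8, chr3:8663359-8667256, minus strand). It had 34.1 normalized CPM in the control, 31.1 at 1 h, 34.6 in each replicate at 4 h and 42.7 at 8 h, and was the member whose replicates lay closest together. Only the ratio at 8 h, 1.25 (1.13 to 1.39), had an interval without 1, and the log2 fold change there was 0.32 ± 0.23. Hey2 (ENSMUSG00000019789.9, chr10:30832359-30842801, minus strand) had 6.63, 6.32, 6.12, 4.97 and 3.88 normalized CPM in the same order of libraries. Its ratio at 8 h was 0.585 (0.430 to 0.789), with a log2 fold change of -0.76 ± 0.42 and an adjusted p of 1.00 from edgeR with Benjamini-Hochberg adjustment. Heyl (ENSMUSG00000032744.4, chr4:123233556-123249875, plus strand) had 29, 14, 20, 22 and 22 reads, and every ratio to the control had an interval that included 1, so no difference was detectable at this depth. Of the HES-related genes outside the family list, Hes7 had between 1 and 5 reads in a library, Hes2 and Hes3 at most 2 and Helt at most 1, and none of the 4 passed the filter.

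Genes with a time course most like that of a member were taken from 11882 genes with a mean of at least 5 normalized CPM, by the root mean square distance of the 4 log2 ratios to the control. Nearest to Id2 were Rgs7, a regulator of G protein signalling (distance 0.088), Il13ra1 (0.094) and Myo9b (0.099). Nearest to Id4 were Arl4a (0.055), Gltp (0.057) and Pnpla7 (0.057), and nearest to Hey2 were Calb1, which encodes the calcium buffer calbindin, Cd200 and Ak4 (0.061, 0.069 and 0.071). Id1 was closest to Vasp, F3 and Fcrls (0.030, 0.037 and 0.044) and Hey1 to Nsun4, Caprin1 and Siah1a (0.026, 0.028 and 0.041). Hes1 had no gene as close, with Cyp26b1, Gm8822 and Gm9800 at 0.23, 0.25 and 0.27, and Id3 had Rnu12, 4921524J17Rik and C630043F03Rik at 0.11, 0.12 and 0.13. The means of Hes5, Hes6 and Heyl were under 5 normalized CPM, and no neighbours were taken for them.

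Among the pathway lists, the highest ratio to the control in each library was that of an activin ligand gene, Inhba. Of 13 BMP and activin ligand genes, 12 passed the filter and none was called. Inhba, which encodes the subunit of activin A, had 6.78 normalized CPM in the control, 36.1 at 1 h, 1044 and 402 in replicates 1 and 2 at 4 h and 79.5 at 8 h. Its log2 fold change at 4 h was 6.71 ± 0.77, with an adjusted p of 0.242 from edgeR with Benjamini-Hochberg adjustment. Inha, the inhibin alpha gene, had 6.73, 6.71, 2.85, 2.91 and 3.42 normalized CPM and was past 2-fold lower in both libraries at 4 h, and Inhbb had 7.34, 5.97, 4.28, 3.70 and 3.59 and was past 2-fold lower at 8 h. Gdf5 had 11 reads in the control and between 3 and 7 in the other libraries, and each ratio to the control had an interval that included 1. The median log2 fold change of the list was -0.32, -0.31 and -0.44 at 1, 4 and 8 h, below that of all genes.

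All 10 receptor genes passed the filter, and their median log2 fold change was 0.082, 0.32 and 0.063. Acvr1, which encodes a type I receptor for BMPs and activin, had 20.1 normalized CPM in the control, 27.3 at 1 h, 42.0 and 53.1 in the pair at 4 h and 57.8 at 8 h. Acvr1c, the gene of the activin and nodal receptor ALK7, had 39.7, 41.6, 58.0, 91.0 and 185. Both genes were past 2-fold at 8 h, Acvr1 also in both libraries at 4 h, and neither passed the test, with adjusted p at 8 h of 0.868 and 0.756 from edgeR with Benjamini-Hochberg adjustment. The more abundant Bmpr2 had between 205 and 266 normalized CPM, and Acvr1b between 88.8 and 118. Of the 6 SMAD genes, whose median was -0.0063, 0.17 and 0.19, Smad9 had 9.40, 9.27, 10.3, 12.6 and 19.3 normalized CPM and was past 2-fold at 8 h. The more abundant Smad3 had between 75.6 and 129, Smad4 between 48.8 and 54.4 and Smad5 between 40.8 and 53.5.

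Genes that restrain BMP and activin signalling lay on both sides of the control. Of 14 genes, all passed the filter, none was called, and the median log2 fold change was 0.097, 0.28 and 0.13. Smad7, an inhibitory SMAD gene that the pathway itself activates, had 13.0 normalized CPM in the control, 58.6 at 1 h, 84.6 and 34.0 in the pair at 4 h and 18.0 at 8 h. The gene of the secreted BMP antagonist chordin, Chrd, had 71.4, 58.1, 19.9, 30.3 and 56.5. At 4 h both libraries were past 2-fold below the control for Chrd, with a log2 fold change of -1.50 ± 0.28 and an adjusted p of 0.259 from edgeR with Benjamini-Hochberg adjustment. Fst, the gene of the activin-binding protein follistatin, had 18, 23, 61, 28 and 58 reads and was past 2-fold higher at 8 h. Grem1 and Bambi at 1 h and Skil at 4 h and 8 h were also at least 2-fold higher, and these 3 are named after their values were seen.

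**Figure D4:**
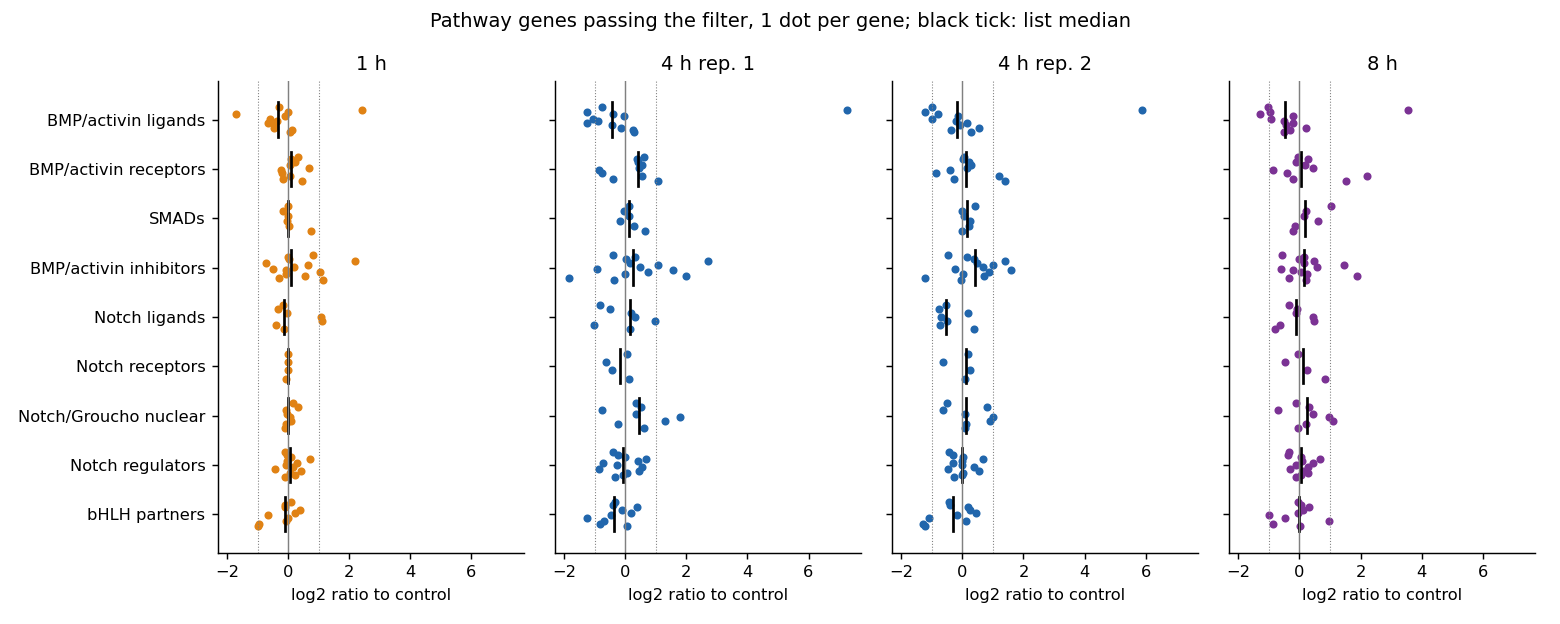
Log2 ratio to the control of each pathway gene that passed the filter, in each kainic acid library, with 1 dot per gene, black ticks at the median of the dots and dotted lines at 2-fold. Inhba is the dot farthest to the right in every library, and most other genes lie within 2-fold of the control.

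Of 8 Notch ligand genes 7 passed the filter, with a median log2 fold change of -0.15, -0.10 and -0.10, and the delta-like genes Dll4, with 36, 67, 38, 21 and 43 reads, and Dll3, with 9, 17, 15, 6 and 11 reads, were past 2-fold at 1 h in value. The ratio at 1 h was 2.11 (1.39 to 3.25) for Dll4 and 2.14 (0.902 to 5.45) for Dll3, so that for Dll3 no difference was detectable at this depth. The more abundant ligand genes Dner and Jag2 had between 114 and 141 and between 19.2 and 34.4 normalized CPM. None of the 4 Notch receptor genes was past 2-fold at any time point, and their median was -0.0074, 0.023 and 0.11. Notch1 had 38.6, 36.8, 41.6, 40.7 and 68.2 normalized CPM in the control, at 1 h, in replicates 1 and 2 at 4 h and at 8 h, and Notch2 had 59.1, 59.3, 43.8, 70.6 and 70.0. Notch3 and Notch4 had between 3.91 and 6.13 normalized CPM.

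Rbpj, the gene of the DNA-binding partner of Notch, had 25.7 normalized CPM in the control, 26.5 at 1 h, 88.7 and 51.0 in the pair at 4 h and 50.7 at 8 h. It was just under 2-fold in replicate 2 and at 8 h, and its log2 fold change at 4 h was 1.44 ± 0.37 (adjusted p of 0.327, edgeR with Benjamini-Hochberg adjustment). The coactivator gene Maml3 had 193, 181, 400, 345 and 368 reads and was past 2-fold at 8 h. The corepressor genes Tle1 and Tle4 had between 68.1 and 95.7 and between 47.5 and 86.5. The median of the 8 nuclear cofactors was 0.0070, 0.29 and 0.26. None of 13 processing enzymes and regulators was past 2-fold, with a median of 0.061, -0.028 and 0.060. Mib1, whose product activates Notch ligands, had between 381 and 557 normalized CPM, Itch between 100.2 and 122 and Adam10 between 65.2 and 82.3, and Numbl had 77.0 in the control and lay between 1.58 and 1.63 times that level in the kainic acid libraries.

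Of 10 genes of factors on which ID and HES proteins act, all passed the filter and none was called, with a median of -0.094, -0.33 and -0.023. Neurod6, a transcription factor gene of excitatory neurons, had 144, 145, 60.9, 67.1 and 104 normalized CPM and was past 2-fold lower in both libraries at 4 h (log2 fold change -1.17 ± 0.16, adjusted p of 0.242, edgeR with Benjamini-Hochberg adjustment). The E protein genes Tcf4 and Tcf12 had between 475 and 674 and between 71.5 and 99.8, and Neurod2 had 71.0, 67.1, 43.4, 76.4 and 140.

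Markers of the cell types in which these genes are known were measured beside them. The summed level of the 8 astrocyte genes was 1.05 of the control at 1 h, 1.25 and 1.15 in the pair at 4 h and 1.10 at 8 h. Within this list Gfap had 221, 272, 596, 510 and 587 normalized CPM, while Gja1, the gene of connexin 43, had 195, 175, 194, 202 and 98.6, at 0.507 of the control at 8 h. The other genes of the list did not share the low value of Gja1 at 8 h, with log2 fold changes of -0.051 for Aqp4, 0.014 for Slc1a2, 0.060 for Aldh1l1, 0.14 for Sox9, 0.15 for Fgfr3, 0.18 for Slc1a3 and 1.41 for Gfap, and the whole list is named here after its values were seen. The summed stem and progenitor list was at 1.17, 0.988, 1.01 and 0.983, and within it Hopx had between 31.8 and 39.0 normalized CPM. Eomes, a gene of intermediate progenitors, was the only one of the list past 2-fold, higher at each time point, with 2 reads in the control, 11 at 1 h, 9 and 14 in the pair at 4 h and 8 at 8 h. Its ratio to the control was 6.23 (1.36 to 57.8) at 1 h, 5.32 (1.10 to 50.6) and 7.37 (1.69 to 66.8) for the pair, and 4.54 (0.906 to 43.9) at 8 h, and it was not called by edgeR. The endothelial list was at 1.00, 1.42, 0.879 and 1.13, and the mural list at 0.994, 0.944, 1.04 and 0.887. The neuron list was between 0.896 and 1.04, the oligodendrocyte list at 1.25, 1.18, 1.52 and 0.988, the precursor list at 1.04, 0.949, 1.02 and 0.978, and the microglia list between 0.960 and 1.05. No gene of the astrocyte, progenitor, endothelial or mural list was at 0 reads in any library. The part of cell composition in the values of the ID, HES and HEY genes was not tested.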

How the data were processed

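Hippocampal total RNA was sequenced from stranded libraries. Per the submitters' processing notes, reads were aligned with STAR 2.5.1b to GRCm38.p4 and counted with HTSeq. The version of HTSeq, the annotation release and the strand setting are not stated. The authors deposited unnormalized counts for 55385 genes, and between 24.7% and 33.1% of reads lay on no gene. Members and gene lists were chosen with earlier results of these data known. Counts were filtered with filterByExpr, scaled by TMM (factors 1.04, 0.992, 0.924, 0.991 and 1.06 in the control, at 1 h, in replicates 1 and 2 at 4 h and at 8 h) and fitted in edgeR 4.0.16 (R 4.3.3) with 4 groups, 1 residual degree of freedom and a common dispersion of 0.0565. Log2 fold changes used a prior count of 2, and the threshold was an adjusted p of 0.05. Each SE is the size of the log2 fold change fitted without a prior count, divided by the square root of the F statistic. It is therefore set around a slightly different estimate. Each choice was changed in turn, to DESeq2 1.42.0, median-of-ratios factors, library size alone, no filter, a smaller prior count and leaving out either replicate at 4 h. The script was tested on simulated data. All members, and of each list up to 4 genes, past 2-fold first and then by abundance, are named. Gene models are from GENCODE M21, in which 55144 identifiers were found. Apart from exon overlaps, at most 0.329% of the 50-base windows of a member were shared with another gene. Figures used Python 3.11.15 and matplotlib 3.10.9.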

Additional observations from a re-analysis of the deposited data

Results flagged for a closer look

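The share of reads that lay on no annotated gene, which no comparison uses, was higher than in the control (24.7%) in every kainic acid library. It was 29.0% at 1 h, 33.1% and 25.3% in replicates 1 and 2 at 4 h, and 30.9% at 8 h. No member lay above the control at 1 time point and below it at another with counting intervals that excluded 1 in every library of both. In value alone Id3 (ratio 0.625 at 1 h and 1.10 at 8 h), Hes6 (1.09 at 1 h, 0.512 and 0.781 at 4 h, 0.681 at 8 h) and Hey1 (0.912 at 1 h, 1.01 and 1.02 at 4 h, 1.25 at 8 h) did so, and these differences between time points were not tested.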

How the results depend on the processing

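With median-of-ratios factors edgeR called 0 genes at 4 h, in place of 1. At 1, 4 and 8 h and between 8 h and 4 h, library size alone called 57, 237, 22 and 120 genes, DESeq2 49, 233, 32 and 132, and no filter 285, 1300, 279 and 957. The prior degrees of freedom of edgeR were 4.42 with TMM, 3.93 with median-of-ratios factors, 11.2 with library size alone and infinite without a filter, and the cause of the other counts was not tested. Library size alone moved the median log2 ratio of all genes in replicate 1 at 4 h to -0.18. Under it no member was past 2-fold higher at 1 h, in place of 1 (count 0), and 3 log2 fold changes turned: Id4 and Hey1 at 4 h (-0.073 and -0.10) and Id2 between 8 h and 4 h (0.0084). Leaving out either replicate at 4 h gave between 0 and 1 members past 2-fold higher and between 0 and 1 lower, since without replicate 2 Id2 and Hes5 were past 2-fold. Without it Id3 and Id4 at 4 h also turned (0.075 and -0.027), and without replicate 1 Id2 and Hes6 at 8 h versus 4 h did (0.074 and -0.19). These fits have no residual degree of freedom and give values only. Id2 at 4 h was called only without a filter (log2 fold change 0.92). The 40 log2 fold changes of members kept their direction under median-of-ratios factors, DESeq2 and a smaller prior count, and their side of the threshold where an adjusted p was given, which under DESeq2 leaves out Heyl, and Hes5 and Hes6 at 8 h versus 4 h. Alternatives for members' log2 fold changes at 8 h versus 4 h were added after the data were seen. No paired analysis was possible because only the 4 h condition has replicates. Reads of Heyl, at most 29 in a library, limit what can be seen of it.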
